A study of Bos taurus with 4 samples.

Results

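The 53 genes described here build the machinery that copies DNA. They were chosen with earlier results of these data known, so their comparison with all measured genes is descriptive. They were taken as a fixed list of gene symbols and sorted by role into licensing, helicase and its activation, polymerases and primase, the clamp and its loader, single-strand binding with strand maturation and topoisomerase, and nucleotide supply. Of the 53, 51 had at least 1 probe on the array and 46 were measured above background, out of 15216 genes named on the array and 7643 measured.

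Before a cell can copy its genome, the origin recognition complex (ORC), CDC6 and CDT1 load the MCM2 to MCM7 hexamer onto origins, a step called licensing, and geminin (GMNN) blocks CDT1 so that no origin is licensed again. The kinase CDC7 with its partner DBF4 then helps CDC45 and the GINS complex join the hexamer to form the running helicase. Polymerases with primase, the sliding clamp PCNA and its loader RFC synthesise the new strands, RPA coats single-stranded DNA, and FEN1 and LIG1 finish the lagging strand. Cleavage-stage embryos divide with short gap phases and lean on transcripts for this machinery, at first stored by the oocyte and later made by the embryo.

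The study asked how embryos respond when the mother's blood carries much beta-hydroxybutyrate (BHB), a ketone body that builds up in negative energy balance. Holstein cows (Bos taurus) were assigned to a low group with systemic BHB under 0.9 mmol/l or to a high group with over 0.9 mmol/l. Cows of both groups received FSH and cloprostenol and were inseminated with sexed semen of several bulls, and their morulas and blastocysts were collected on day 7 after oestrus. Each of 4 dual-colour Agilent arrays paired 1 amplified high BHB RNA with 1 amplified low BHB RNA, with the high group in Cy5 on arrays 1 and 2 and in Cy3 on arrays 3 and 4. The labels call the arrays biological replicates but do not say whether an RNA came from 1 cow or from several, nor how many morulas and blastocysts it held, so p-values reflect only how much these arrays varied. In RNA of whole embryos, fewer cells of a type and less RNA per cell cannot be told apart.

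Each value is a log2 ratio, the high BHB over the low BHB signal of an array, with the mean ± SD over the 4 arrays (n = 4). A negative ratio means a lower level in embryos of high BHB cows. Across the 15944 probes measured above background, the SD of the ratios was 0.84, 0.44, 0.53 and 0.62 on arrays 1 to 4, so that array 1 spread most. Ratios of different arrays resembled each other weakly, with Pearson's r across probes between 0.10 (arrays 1 and 3) and 0.38 (arrays 1 and 4). The tissue label was set against defining markers. All 5 pluripotency markers looked at, among them POU5F1 and NANOG, and all 7 trophectoderm markers, among them CDX2 and GATA3, were measured, and 0 of 7 cumulus and granulosa cell markers were. Of 4 blood cell genes, PTPRC and HBA were above background in both groups on all 4 arrays.

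Among the 46 measured replication genes, 39 had a mean ratio below 0 and 7 above, with a median of -0.37. Mean ratios lay below 0 for 84.8% of them, against 54.6% of the 7643 measured genes, whose median was -0.05. No gene passed on its own: limma called 0 of the 46 at an adjusted p under 0.05, and the smallest adjusted p was 0.203. Over the whole array 2 probes passed (0.0125%), and 0 of the 7643 genes as represented here by their brightest probe. At an unadjusted p under 0.05 in limma, 14 of the 46 had a lower ratio (30.4%, against 11.8% of all measured genes) and 0 a higher one (against 5.76%). The 14 were CDC6, CDC7, DBF4, DERA, GINS3, GMNN, ORC2, ORC3, ORC5, ORC6, PCNA, POLD3, POLE4 and RFC3. The count of 14 became 8 without array 1, where the background was 9.5%, and 6 when the pairing of the RNAs on an array was not used, where it was 4.96%.

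Ratios below 0 on all 4 arrays were seen for 16 of the 46 (34.8%, against 15.9% of measured genes), and ratios above 0 on all 4 arrays for MCM3 alone (2.17%, against 10.3%). Array 1 had the lowest ratios: 42 of the 46 were below 0 there, 28 on array 2, 27 on array 3 and 34 on array 4. The array medians of the 46 genes were -0.76, -0.24, -0.10 and -0.29, and those of all measured genes were -0.15, 0.0045, -0.02 and -0.06. The replication genes thus had the lower median on every array, by the widest margin on array 1. Without array 1 their median was -0.22, against -0.01 over all measured genes.

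**Figure D1:**
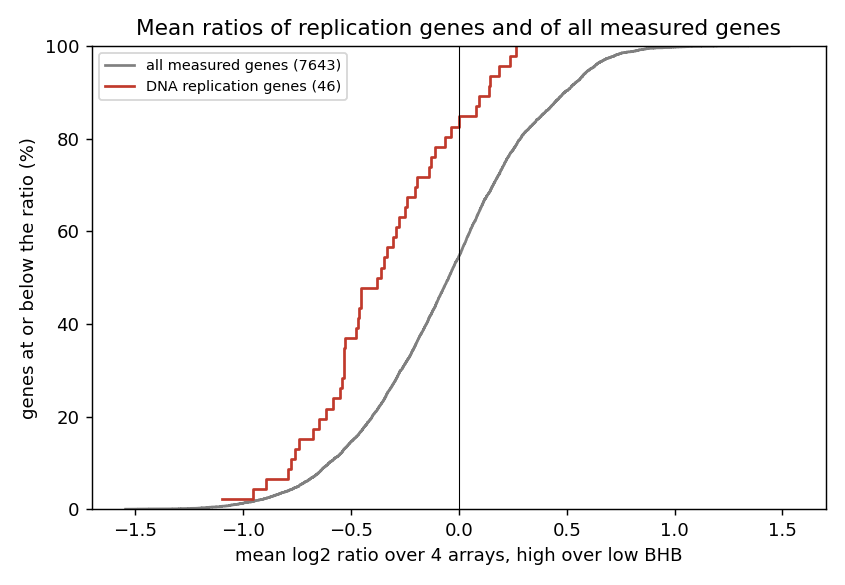
Cumulative share of genes (vertical axis, percent) at or below each mean log2 ratio of high over low BHB (horizontal axis), for the 46 measured DNA replication genes (red) and all 7643 measured genes (grey). The red line lies to the left: 84.8% of replication genes and 54.6% of all measured genes had a mean below 0.

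A gene enters this comparison if its probe was above background in at least 1 group on 3 or more arrays, and a gene that enters through 1 group alone leans towards that group by construction. Of the 46, 37 were above background in both groups on 3 or more arrays, 8 through the low BHB group alone and GINS4 through the high BHB group alone. Those 8 were GINS3, MCM8, ORC2, ORC5, POLA2, PRIM1, RPA1 and TK1. Among the 37, 32 had a mean below 0 (86.5%, against 53% of the 6256 genes that met the same condition), with a median of -0.36 against -0.03. In this subset 11 had a lower ratio at an unadjusted p under 0.05 in limma (29.7%, against 11.7%), and 13 had ratios below 0 on all 4 arrays (35.1%, against 16%). Just inside the filter were MCM8, POLA2 and PRIM1, each detected on 1 array for high BHB and on 3 arrays for low BHB, with means of -0.38, -0.25 and -0.20. So were ORC5 and TK1, detected on 2 and 3 arrays, with means of -0.90 and 0.14, and GINS4, on 3 and 2, with 0.09. Just outside it were MCM10, detected on 2 arrays for each group, and POLA1, on 1 and 2. CDT1 was detected on 1 array for high BHB, and POLD1 and POLE, the catalytic subunits of polymerases delta and epsilon, on 0 for either group. GINS2 and RFC1 have no probe under these names in the annotation used.

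By means over the 4 arrays, the licensing genes had the lowest median of the 6 role groups. All 8 measured genes had a mean below 0. At an unadjusted p under 0.05 in limma 6 were lower (75%, against 11.8% of all measured genes). Ratios below 0 on all 4 arrays were seen for 6 too (75%, against 15.9%). The median of the 8 was -0.58, with array medians of -0.98, -0.49, -0.43 and -0.62. It was -0.47 without array 1. Nucleotide supply had a lower median than licensing on arrays 1 (-1.02) and 3 (-0.47). So did single-strand binding on array 1 (-0.99) and the clamp group on array 2 (-0.59). ORC2 and ORC5 were measured through the low BHB group alone, a way of passing the filter that leans to ratios below 0. Without them 6 genes were left, 4 at that p (ORC3, ORC6, CDC6 and GMNN), with a median of -0.57.

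CDC6, the ATPase that loads the helicase together with ORC, had log2 intensities of 8.37, 8.62, 8.92 and 8.25 for high BHB on arrays 1 to 4, and of 9.36, 9.11, 9.66 and 9.18 in the low BHB channel. The 4 high BHB values lay below the 4 low BHB values with no overlap. The log2 ratios were -0.99, -0.50, -0.74 and -0.93, or a mean of -0.79 ± 0.22 (0.578-fold), with an unadjusted p of 0.0034 and an adjusted p of 0.208 in limma. Such a separation was seen for 5 of the 46 genes, CDC6, DERA, ORC2, POLD3 and RFC4, and for 2.42% of measured genes. ORC2 was measured through the low BHB group alone, which favours this order by construction. RFC4 separated barely, with 8.441 for high BHB on array 1 against 8.446 for low BHB on array 2. The reverse order, with the 4 high BHB values on top, was seen for 0 of the 46 and 1.3% of measured genes.

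All 6 subunits of ORC, which marks the origins, were measured, and all 6 means were below 0 with a median of -0.54. ORC5 had ratios of -0.98, -0.50, -0.67 and -1.43, a mean of -0.90 ± 0.41 (0.537-fold), with an adjusted p of 0.203 in limma. Its signal was weak, detected on 2 arrays for high BHB and on 3 for low BHB. ORC2 had -0.98, -0.26, -0.46 and -0.50 (mean -0.55 ± 0.30), ORC3 -0.27, -0.82, -0.41 and -0.61 (-0.53 ± 0.24) and ORC6 -0.52, -0.21, -0.47 and -0.62 (-0.45 ± 0.18). These 4 subunits were below 0 on every array, lowest on array 1 for ORC2, on array 2 for ORC3 and on array 4 for ORC5 and ORC6. ORC4 had a mean of -0.62 ± 0.76 with array 3 at 0.46, and ORC1, the subunit whose level changes through the cell cycle in human cells, was near 0 at -0.14 ± 0.38. ORC2 was detected on 2 arrays for high BHB.

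Geminin, which restrains licensing rather than serving it, had the lowest mean of this group. GMNN had ratios of -2.37, -0.48, -0.34 and -0.62, a mean of -0.95 ± 0.95 (0.516-fold, adjusted p = 0.283 in limma). All 4 arrays were below 0, and array 1 stood far from the others. Without array 1 its mean was -0.48.

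**Figure D2:**
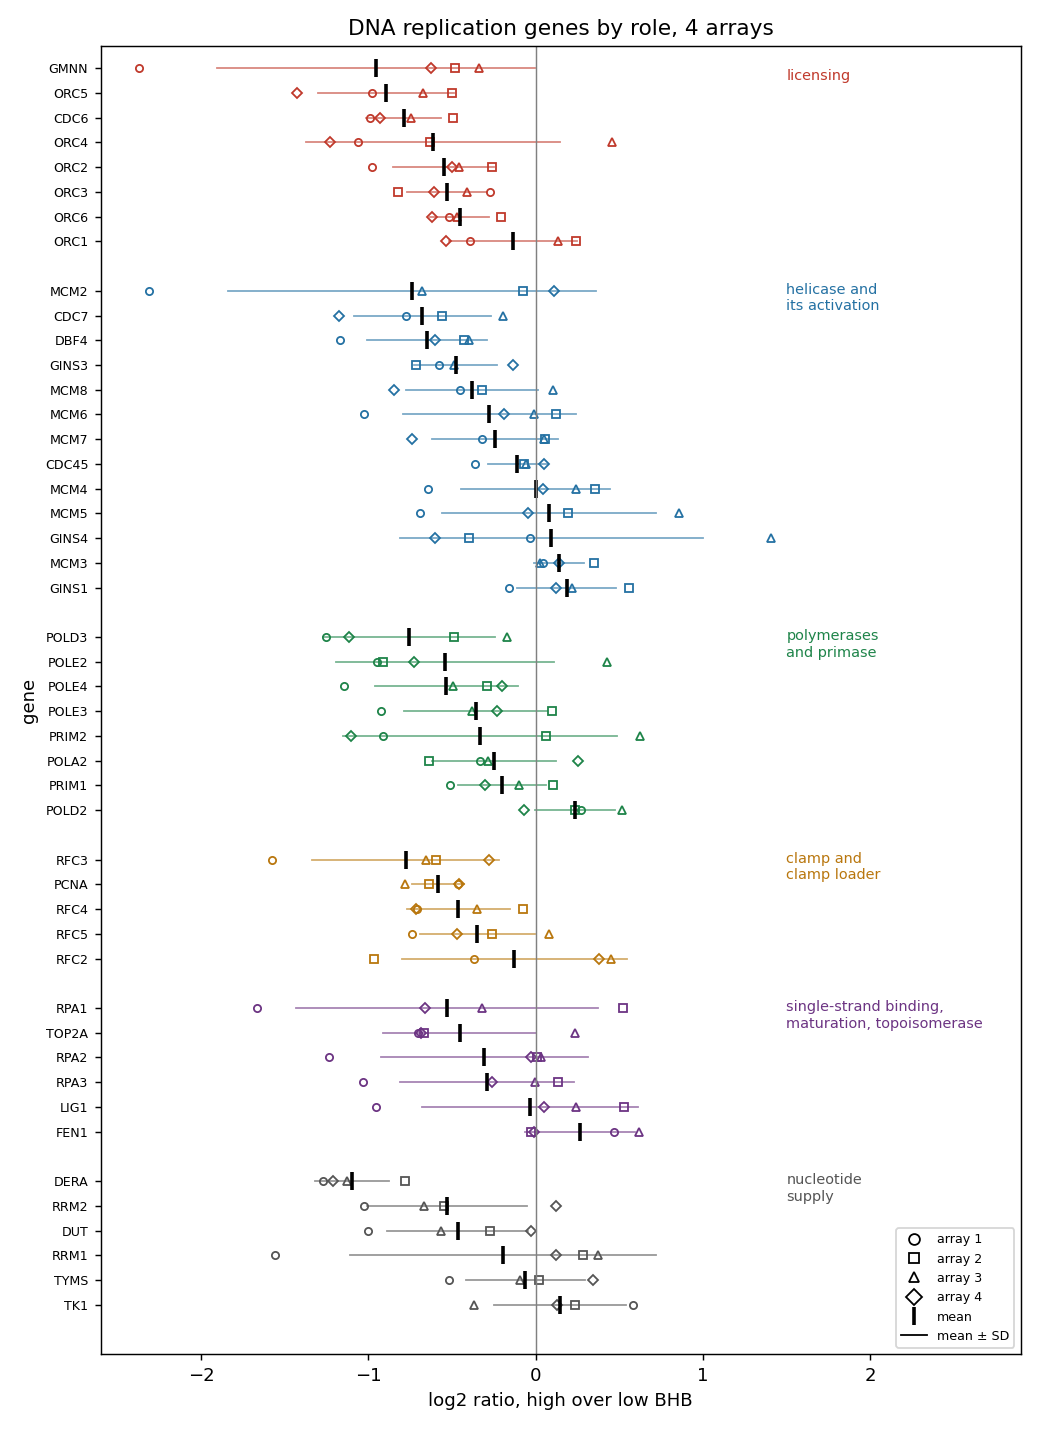
Log2 ratio of high over low BHB (horizontal axis) of each of the 46 measured genes (rows, grouped and coloured by role). Open symbols are the 4 arrays, black ticks the mean and lines the mean ± SD. Licensing genes sit left of 0 on most arrays, while MCM3, MCM4, MCM5 and GINS1 lie around or right of 0 and array 1 (circles) is often leftmost.

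For the helicase, which licensing loads, ratios went both ways. Of its 13 measured genes, 9 had a mean below 0 and 4 above, with a median of -0.24 (-0.03 without array 1). At an unadjusted p under 0.05 in limma 3 were lower (23.1%, against 11.8% of all measured genes) and 0 higher (against 5.76%). GINS3, 1 of the 3, and MCM8 were measured through the low BHB group alone, and GINS4 through the high BHB group alone. Without them 10 genes were left, 7 with a mean below 0 and 2 lower at that p, with a median of -0.18. Over all measured genes of both lists, the licensing median lay below the helicase median on each array, by 0.40, 0.42, 0.46 and 0.49 on the log2 scale. This difference between lists was not tested.

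Within the MCM2 to MCM7 hexamer, 4 means were below 0 and 2 above, with array medians of -0.67, 0.16, 0.04 and -0.00036. MCM3 had ratios of 0.05, 0.35, 0.03 and 0.14, a mean of 0.14 ± 0.15 (1.1-fold, adjusted p = 0.756 in limma), with 0.07 without array 2, and was below 0 at -0.22 with median centring in place of loess. MCM2 had -2.31, -0.07, -0.68 and 0.11 at its brightest probe (mean -0.74 ± 1.10), with array 1 far below the rest and a mean of -0.22 without it. The other measured MCM2 probe read -0.41, 0.72, 0.54 and 0.39 (mean 0.31), so that the probes of MCM2 disagreed in sign. MCM4, MCM5 and MCM6 were below 0 on array 1 (-0.64, -0.69 and -1.03) and between -0.19 and 0.86 on the other arrays. MCM7 had a mean of -0.24 ± 0.38. MCM8, a relative of the hexamer subunits that acts in recombination repair, had -0.38 ± 0.39.

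The kinase that triggers firing had low ratios in both of its subunits. CDC7, the catalytic subunit, had ratios of -0.78, -0.56, -0.19 and -1.18 (mean -0.68 ± 0.41, 0.625-fold). DBF4, its activating subunit, had -1.17, -0.43, -0.40 and -0.60 (mean -0.65 ± 0.36, 0.638-fold). Both subunits were below 0 on every array, with adjusted p-values of 0.272 and 0.277 in limma. CDC45 had a mean of -0.11 ± 0.18. The 3 measured GINS subunits went both ways. GINS3 had -0.58, -0.71, -0.49 and -0.14 (mean -0.48 ± 0.25), below 0 on every array, and was detected on 1 array for high BHB. GINS1 had a mean of 0.19 ± 0.30, with its other probes at 0.38 and -0.08, and GINS4 of 0.09 ± 0.91 with array 3 at 1.41.

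Of the polymerase and primase genes 8 were measured, 7 with a mean below 0, and the median was -0.35 (-0.20 without array 1). At an unadjusted p under 0.05 in limma 2 were lower, POLD3 and POLE4 (25%, against 11.8% of all measured genes), and 0 higher. The array medians were -0.92, -0.12, -0.14 and -0.26. POLA2 and PRIM1 were measured through the low BHB group alone. Without them 6 genes were left, 5 with a mean below 0 and 2 lower at that p, with a median of -0.45.

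POLD3, an accessory subunit of the lagging-strand polymerase delta, had log2 intensities of 8.58, 8.60, 9.07 and 8.38 in the high BHB channel and of 9.84, 9.09, 9.24 and 9.50 in the low BHB channel. The groups did not overlap, though array 3 of the high group came close to array 2 of the low group. The ratios were -1.25, -0.49, -0.17 and -1.12, a mean of -0.76 ± 0.51 (0.592-fold, adjusted p = 0.258 in limma). Its other measured probe read -0.19, 0.15, 0.21 and -1.09 (mean -0.23). POLD2, which bridges POLD3 to the catalytic subunit, had 0.24 ± 0.24, above 0 on 3 arrays.

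Of polymerase epsilon, which copies the leading strand, 3 accessory subunits were measured and all 3 means were below 0. POLE4, a histone-fold subunit, had -1.15, -0.29, -0.49 and -0.20 (mean -0.53 ± 0.43), with a mean of -0.33 without array 1, and its other probe had a mean of -0.75. POLE3, its histone-fold partner, had -0.36 ± 0.43. POLE2 had -0.95, -0.91, 0.43 and -0.73 (mean -0.54 ± 0.65). Array 3 of POLE2 stood apart above 0, and without it the mean was -0.86. The primase and polymerase alpha subunits POLA2, PRIM1 and PRIM2 had means between -0.33 and -0.20, each with both signs among its arrays.

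Over all measured genes of each list, the clamp and its loader had the lowest median after licensing. All 5 measured genes had a mean below 0, with a median of -0.46 and array medians of -0.71, -0.59, -0.35 and -0.46. At an unadjusted p under 0.05 in limma 2 were lower, PCNA and RFC3 (40%, against 11.8% of all measured genes). Of the 5, 3 were below 0 on every array (60%, against 15.9%). On array 2 this median lay below that of the licensing genes, on the other arrays above it.

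PCNA, the ring that tethers polymerases to DNA, had ratios of -0.46, -0.64, -0.78 and -0.46, a mean of -0.59 ± 0.16 (0.667-fold, adjusted p = 0.281 in limma). The 4 arrays lay close together, and array 1 was not the lowest. Its other 3 measured probes had means of -0.39, -0.41 and -0.28, each with 1 array above 0, so that its 4 probes gave means of the same sign.

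RFC3 had -1.58, -0.59, -0.66 and -0.28 (mean -0.78 ± 0.56, 0.584-fold), and -0.51 without array 1. RFC4 had -0.71, -0.07, -0.35 and -0.71 (mean -0.46 ± 0.31). Both of these loader subunits were below 0 on every array. RFC5 had a mean of -0.35 ± 0.35. RFC2 took both signs, from -0.97 on array 2 to 0.45 on array 3, around a mean of -0.13 ± 0.67.

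The genes of single-strand binding, strand maturation and topoisomerase depended on array 1. Of 6 measured genes 5 had a mean below 0 (median -0.30), yet 0 were lower at an unadjusted p under 0.05 in limma and 0 had the same sign on all 4 arrays. The array medians were -0.99, 0.07, 0.13 and -0.15, and the median without array 1 was -0.02. RPA1 was measured through the low BHB group alone. Without it 5 genes were left, 4 with a mean below 0, with a median of -0.29.

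RPA1, the large subunit of the single-strand binding complex, had -1.67, 0.52, -0.32 and -0.66 (mean -0.53 ± 0.91), with a mean of -0.15 without array 1 and of -0.88 without array 2. It was detected on 2 arrays for high BHB. RPA2 and RPA3 were at -1.23 and -1.03 on array 1 and between -0.26 and 0.13 on the others. TOP2A, which untangles sister chromatids and is a common marker of cycling cells, had -0.70, -0.67, 0.23 and -0.69 (mean -0.46 ± 0.46). Its array 3 stood apart, and without it the mean was -0.69. The flap nuclease FEN1 had the highest mean of the 46 genes, 0.26 ± 0.33, and DNA ligase LIG1 had -0.03 ± 0.64.

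Nucleotide supply held the lowest mean ratio of the list, that of DERA. Of 6 measured genes 5 had a mean below 0 (median -0.33), with array medians of -1.02, -0.13, -0.47 and 0.12. At an unadjusted p under 0.05 in limma 1 was lower (16.7%, against 11.8% of all measured genes) and 0 higher (against 5.76%). The median was -0.15 without array 1. TK1 was measured through the low BHB group alone. Without it 5 genes were left, all 5 with a mean below 0 and 1 lower at that p. Their median of -0.47 was close to that of the clamp group, -0.46, and just below it.

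DERA, deoxyribose-phosphate aldolase, breaks deoxyribose phosphate down rather than making nucleotides. Its log2 intensities were 10.83, 11.66, 11.68 and 11.64 in the high BHB channel and 12.10, 12.44, 12.81 and 12.85 in the low BHB channel, with no overlap. The ratios were -1.27, -0.78, -1.13 and -1.22, a mean of -1.10 ± 0.22 (0.467-fold), with an unadjusted p of 0.00036 and an adjusted p of 0.203 in limma. DERA ranked 48 from the lowest among 7643 measured genes, and its mean stayed between -1.60 and -1.04 under the 17 other ways of processing the data. Settings that changed only the filter, the averaging of probes or arrays, the dye term or the pairing left it at -1.10. With 1 measured probe for DERA, these settings were no test of its mean. The other DERA probe was not measured above background.

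The genes that make deoxynucleotides were less uniform. RRM2, the subunit of ribonucleotide reductase that rises in S phase, had -1.03, -0.55, -0.67 and 0.12 (mean -0.53 ± 0.48). Its other probes had means of -0.19 and -0.51, the second of them between -0.61 and -0.43 on every array. RRM1, the large subunit, had -1.56 on array 1 and 0.28, 0.37 and 0.12 on the others, so that its mean of -0.19 ± 0.91 became 0.26 without array 1. DUT, which removes dUTP, had -1.003, -0.27, -0.57 and -0.03 (mean -0.47 ± 0.42), -0.29 without array 1, and its other probe had 0.06. Thymidylate synthase TYMS had a mean of -0.06 ± 0.36 and thymidine kinase TK1 of 0.14 ± 0.40.

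**Figure D3:**
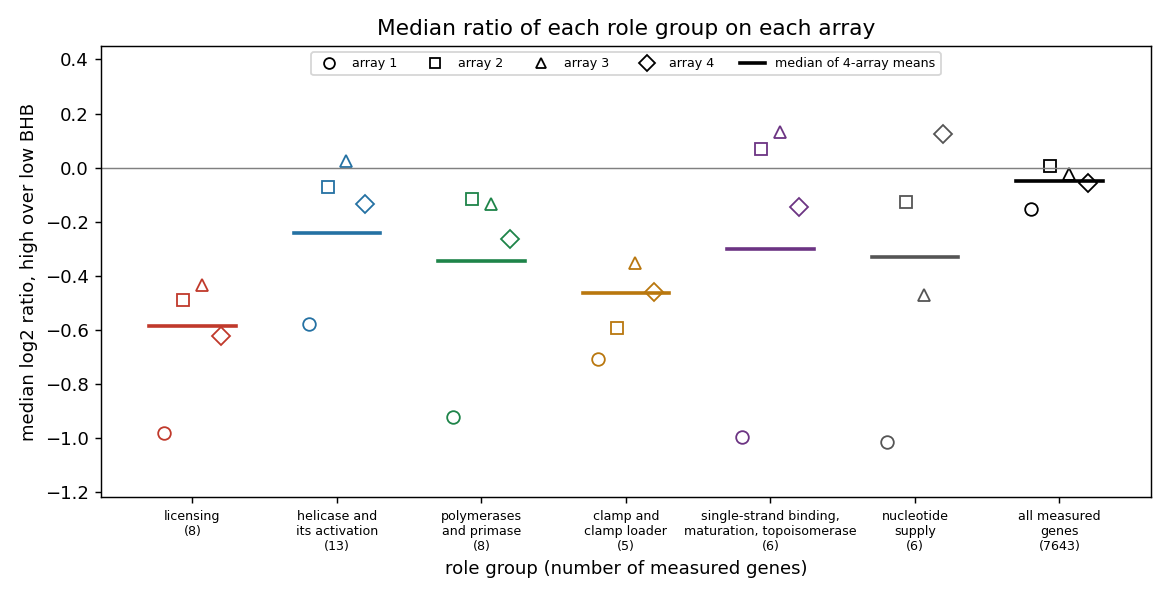
Median log2 ratio of high over low BHB (vertical axis) of each role group and of all measured genes (horizontal axis, number of genes in brackets). Open symbols are the medians on the 4 arrays and bars the median of the means over the 4 arrays. The licensing and clamp groups lie below -0.3 on every array. The other 4 groups lie within 0.3 of 0 on arrays 2 and 4 and reach -0.58 to -1.02 on array 1. On array 3 nucleotide supply lies at -0.47, below licensing at -0.43 and the clamp group at -0.35.

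The order of the 46 genes changed from array to array. Across the 46 genes, which are not independent replicates and share labelling and background on each array, Pearson's r between arrays lay from 0.14 (arrays 3 and 4, and arrays 1 and 2) to 0.38 (arrays 1 and 3, and arrays 2 and 4). Of the 46, 10 had more than 1 measured probe. Of their 15 further probes 4 had a mean of the other sign, 1 each for MCM2, GINS1, TYMS and DUT. In number of arrays above background, 15 of the 46 genes were ahead in the low BHB channel, 1 in the high BHB channel and 30 were level. Over all 43794 probes, 48.2%, 40.4%, 32.4% and 40.4% lay above background in the low BHB channel of arrays 1 to 4. In the high BHB channel the shares were 32.4%, 36.7%, 36.1% and 38%. The low BHB channel thus led over the whole array too, except on array 3.

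Other genes of the same pathway had a median nearer to 0. Of 63 such genes 47 were measured, 34 with a mean below 0 (72.3%, against 54.6% of all measured genes), and their median was -0.15. At an unadjusted p under 0.05 in limma 8 were lower (17%, against 11.8%) and 0 higher (against 5.76%), and limma called 0 after adjustment. Among the 8, CCNE2 was detected on 0 arrays for high BHB and 4 for low BHB, and CMPK1 on 2 and 4. Both were measured through the low BHB group alone, which leans to ratios below 0 by construction. CMPK1, which phosphorylates CMP and UMP, had ratios of -2.11, 0.10, 0.18 and -4.07, so that its mean of -1.47 ± 2.03 rests on arrays 1 and 4. It was -0.61 without array 4, and the mean of its other measured probe had the opposite sign, at 0.22. Cyclin A2, CCNA2, the S-phase cyclin, had -2.27, -0.23, -0.66 and -0.45 (mean -0.90 ± 0.93). Its mean was -0.45 without array 1, and its other measured probe had a mean of 0.11. The checkpoint kinase CHEK1 had -0.68, -0.51, -1.10 and -0.56 (-0.71 ± 0.27), and the exonuclease EXO1 -0.63, -0.56, -0.74 and -0.64 (-0.64 ± 0.07). UMPS, which completes UMP synthesis, had -0.62 ± 0.31, and HAT1, which acetylates new histone H4, -0.54 ± 0.08. Except for CMPK1, these genes were below 0 on every array by the probe that stood for them.

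Markers of the embryo's lineages were set beside these values. The 7 trophectoderm markers had a median of -0.03 with 4 below 0, and the 5 pluripotency markers of -0.27 with 3 below 0. Among the trophectoderm markers GATA2 had 0.51, 0.45, 0.54 and 0.89 (mean 0.60 ± 0.20, adjusted p of 0.279 in limma) and TEAD4 a mean of 0.20 ± 0.16, both above 0 on all 4 arrays. NANOG was at -3.38 on array 4 and between -0.42 and 0.18 on the others. Of 4 hypoblast markers GATA4 (0.55 ± 0.37) and HNF4A (1.06 ± 1.28) were measured, while SOX17 was above background on no array and GATA6 has no probe under this name. Of 9 stored oocyte transcripts ZP3 and KPNA7 were measured, at -0.04 and 0.15, and GDF9, BMP15, NLRP5, ZAR1 and OOEP were above background on no array. The blood genes PTPRC and HBA had means of 0.42 and 0.25. The part of lineage and stage make-up in the replication gene ratios was not tested.

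**Figure D4:**
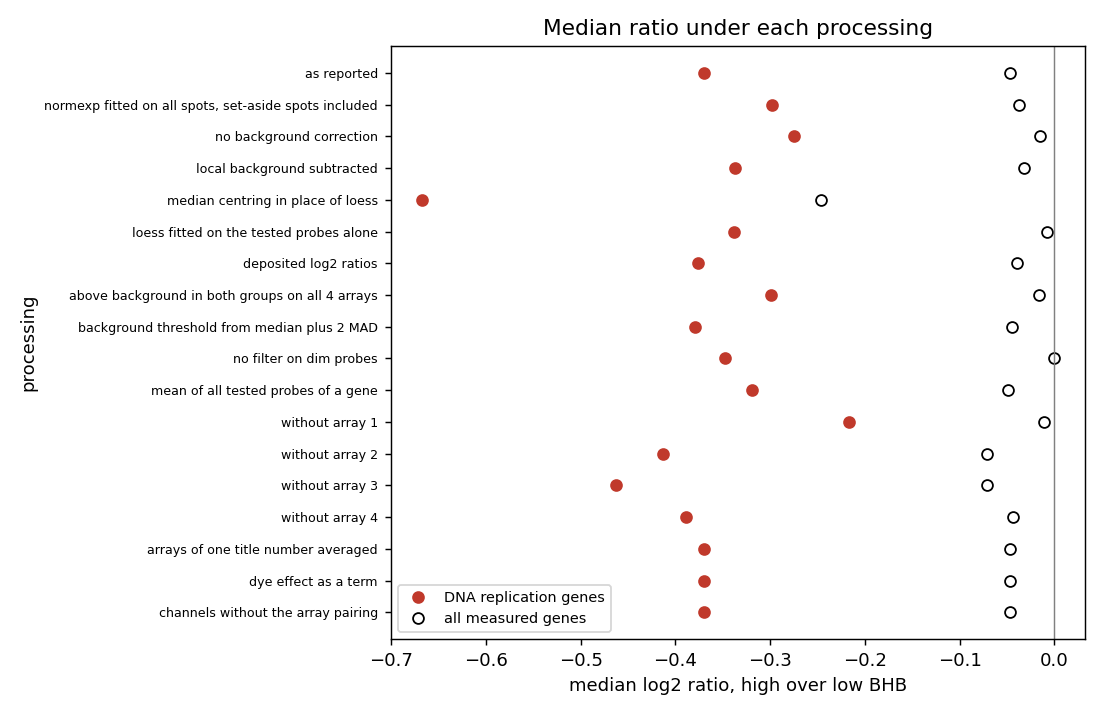
Median log2 ratio of high over low BHB (horizontal axis) of the measured DNA replication genes (red) and of all measured genes (open circles) under each way of processing the data (rows). The red point lies left of the open circle in every row, from -0.67 with median centring to -0.22 without array 1. The rows for averaged arrays, the dye term and channels without the array pairing repeat the reported red point by construction.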

How the data were processed

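Per the file headers, the deposited scanner files hold median foreground and background intensity per spot at 635 nm (Cy5) and 532 nm (Cy3), with no normalization. The authors' deposited per-sample log2 values, for which the submitters' processing notes name limma with no step, correlated with the ratios used here at r = 0.967 to 0.995. They have array medians of 0.00096 to 0.017 and the direction high over low BHB. The sources used here do not give their background step. A further table of 4 columns was not used.

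Ratios were computed in R 4.3.3 with limma 3.58.1. Background was corrected with normexp (offset 50), fitted without the 95 to 114 spots per array that the scanner software had set aside, since with them the fitted background mean was below 0 in Cy3 of array 1 (-90.7) and in both channels of array 4 (-177.1 and -272.2). Ratios were normalized by loess (span 0.3) with control and set-aside spots at weight 0, and turned to high over low BHB. A probe was measured where its foreground lay over a threshold, the negative control mean plus 2 SD (153 spots, less those set aside), in the channel of 1 group on at least 3 of 4 arrays. This gave 15944 of 43794 probes. Platform annotation named 21790 probes, with symbols updated through RefSeq ARS-UCD2.0 (20025 current, 1524 by a synonym, 241 neither), 7 of the genes described here by an older symbol. The brightest measured probe stood for a gene. Limma (lmFit, eBayes) was fitted on all measured probes with Benjamini-Hochberg adjustment. Log2 intensities per channel are after loess and Aquantile. They compare groups within a probe, not genes with each other. No spot of the replication genes was saturated. The number of arrays limits the precision.

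The RNAs are paired by the array that held both. The genes and lists were chosen with earlier results of these data known. Ratios on each array are given for genes with an unadjusted p under 0.05 or 1 sign on all 4 arrays, and for the 2 largest means of each role group. Of the other genes of the pathway, those at an unadjusted p under 0.05 are named, at most the 6 highest and 6 lowest, and marker lists are given by summaries and at most 2 genes each with values.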

Additional observations from a re-analysis of the deposited data

Results flagged for a closer look

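In 5 of the 46 genes, 1 array lay far from the other 3 by Dixon's test for 4 values. The 46 genes and 7 medians of lists were looked at, and chance marks about 1 in 20. Array 1 was the low one in 3 of the 5. GMNN was at -2.37 there and between -0.62 and -0.34 on the others, RPA2 at -1.23 there and between -0.03 and 0.03 on the others, and RRM1 at -1.56 there and between 0.12 and 0.37 on the others. Array 3 was the high one for POLE2, at 0.43 against -0.95 to -0.73, and for TOP2A, at 0.23 against -0.70 to -0.67. Without the array that stood apart, the means were -0.48 for GMNN, 0.0029 for RPA2, 0.26 for RRM1, -0.86 for POLE2 and -0.69 for TOP2A. No median of a role group was set apart. The causes were not tested.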

How the results depend on the processing

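The median of the replication genes lay below 0 and below that of all measured genes under all 17 alternatives, by 0.21 (without array 1) to 0.42 (median centring) on the log2 scale. Averaging arrays by title number, a dye term and leaving out the pairing keep the means of these genes unchanged by construction. Their median of -0.37 under those settings was fixed in advance. Median centring in place of loess moved the median of all measured genes by -0.20. It gave medians of -0.67 for the replication genes, -0.95 for licensing and -0.83 for the clamp group, 22 genes lower at an unadjusted p under 0.05 (background 23.1%), 0 genes above 0 on all arrays, and MCM3 at -0.22. With only probes above background in both groups on all 4 arrays, 32 genes were left, 7 of them lower at that p (background 11.9%) and 10 below 0 on all arrays (background 17.3%). The helicase median was then 0.039. MCM2 and POLD3, read from their other probes, were at 0.31 and -0.23. Of the genes with ratios on each array, CDC6, DBF4, GINS3, ORC2, ORC5 and RPA1 dropped out under this filter. Leaving out 1 array gave 8 (without array 1) to 12 lower genes (background 7.17% to 10.7%). It gave 16 to 22 genes below 0 on all remaining arrays (background 20.3% to 24.2%, against 15.9% over 4 arrays) and 1 to 5 above 0. A count over 3 arrays is higher by construction, and no background was computed for the genes above 0. Between 0 (without array 2 or array 4) and 2 probes passed an adjusted p of 0.05 in limma. Without the pairing within arrays (no replicate block) 6 genes were lower and 0 probes passed. Averaging the arrays that repeat a number in their titles leaves 2 replicates and let 1210 of the 15944 probes pass. Among them were those of CDC6 (-0.79), DERA (-1.10), GMNN (-0.95), ORC5 (-0.90), POLD3 (-0.76) and RFC3 (-0.78). A spread taken from 2 values is uncertain, and these calls are not read as results. On both averages 33 of the 46 genes were below 0 (background 37.2%) and 5 above. The titles alone allow averaging in this way. Arrays that share a title number correlated at r = 0.10 (1 and 3) and 0.19 (2 and 4) over all measured probes, and at 0.38 each across the 46 genes, the highest of the 6 pairs. The number of probes past an adjusted p of 0.05, 2 as reported, was 0 with normexp fitted on all spots or median centring, and 1 with no background correction, local subtraction, no filter on dim probes or a dye term. The number of genes above 0 on all arrays, 1 as reported, was 0 with normexp on all spots and 2 with no background correction, local subtraction or no filter, which also gave 1 higher gene at an unadjusted p under 0.05. Of 368 values of the 22 genes with ratios on each array, 360 kept their sign and their side of the adjusted threshold. The tally includes the settings that keep each mean unchanged and so could not change a sign. For genes with 1 measured probe, averaging the probes of a gene could not either. As reported, 0 of the 46 genes passed that threshold. Where no construction is named, the cause was not tested. The signal over background limits what can be said of the 5 genes whose probes were too dim.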

Other observations

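Of all measured genes 54.6% had a mean log2 ratio below 0, and 11.8% were lower at an unadjusted p under 0.05 in limma. Of 10 measured genes of origin loading and firing outside the list, 9 had a mean below 0 (median -0.17), 3 of them at that p. Of the 3, CCNE2 was detected on 0 arrays for high BHB. All 4 measured genes of fork protection and the checkpoint had a mean below 0 (median -0.27). Chromatin assembly at the fork went both ways, with 6 of 10 measured genes below 0 (60%, median -0.15). CHAF1B, a subunit of the factor that places histones on new DNA, had 0.24, 0.23, 0.32 and 1.17, above 0 on every array with array 4 far above the others, while HAT1 of the same group lay between -0.66 and -0.48. CHAF1B was picked after its values were seen. Nucleotide metabolism outside the list had 8 of 13 measured genes below 0 (61.5%) and a median of -0.02. The shares below 0 of these last 2 groups were near that of all measured genes. No gene of these groups passed an adjusted p of 0.05 in limma, and no difference between groups was tested.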
